A study of Mus musculus with 18 samples.

Results

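The results below describe 38 genes of DNA replication, taken by symbol from a fixed list, among 19938 genes measured on 18 arrays of mouse mammary cells. Each gene was read through the probe set that is annotated to it alone and has the highest mean over the 18 arrays, and all 38 were found. Values are on the log2 scale, so a difference of 1 is a 2-fold difference, and the level of a gene is compared only with its own level in other samples, because probe sets differ in brightness. Genes are grouped by level only where this is said.

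Gene expression had been measured in 6 groups of 3 arrays. Comma-D is a mouse mammary epithelial line that the labels call normal, without erbB2 and without phosphorylated erbB2, and it was grown in DMEM/F12 with 2% FBS, insulin and EGF. MMTV-neu cells come from mouse mammary tumours in which the MMTV promoter drives the neu (erbB2) oncogene; the labels call them cancer, with erbB2 and its phosphorylated form, and they were grown in DMEM with 10% FBS. Both lines were also grown together at 1:50 or 1:1 in the Comma-D medium, labelled with an anti-erbB2 antibody and separated on magnetic beads. The 1:50 and 1:1 erbB2-negative fractions are both labelled normal. The 1:50 erbB2-positive fraction is labelled redirected, with erbB2 present and phosphorylated erbB2 absent, and the 1:1 erbB2-positive fraction is labelled cancer, with both present. Which line contributes the 50 parts is not stated in the labels, nor whether the replicates are separate cultures, so p-values measure only the spread between these samples. Between the unmixed lines, line and medium cannot be told apart. Every fraction also differs from both unmixed lines by co-culture, antibody labelling and bead separation, and from MMTV-neu by medium as well, and these cannot be told apart in such comparisons. How far a fraction holds cells of the other line was not tested. Differences in cell mixture and in expression within cells therefore cannot be told apart wherever a fraction is compared.

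DNA replication begins when the origin recognition complex, with Cdc6 and Cdt1, loads the Mcm2 to Mcm7 ring onto DNA. Cdc45 and the GINS proteins join the ring to make the working helicase, primase and the replicative polymerases copy the strands, the Pcna clamp holds the polymerases on DNA, and Fen1 and Lig1 join the lagging-strand pieces. Many of these genes are transcribed as cells enter S phase, when E2F factors are released from the retinoblastoma proteins, and their RNA is widely read as a sign of proliferation in mammary epithelium and its tumours.

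Promoters of the listed genes are shown for the E2F words they hold, as a description of the list. RefSeq windows on GRCm38.p6, from 250 bases before to 50 bases after a start of transcription, were found for 32 of the 38 genes and not for the other 6. An E2F word (TTTCCCGC, TTTCGCGC, TTTGCCGC or TTTGGCGC, on either strand) lay in the windows of 13 of the 32 genes (40.6%), against 2.605% of 27025 genes with a window. The CCAAT box, searched as CCAAT on either strand, was in 22 of 32 (68.75%) against 41.1% of genes, and the word TTTGAA of the cell cycle homology region, which is common in promoters of mitosis genes, in 4 of 32 (12.5%) against 20.2%. A match describes these letters only. The 80 bases shown for each of 6 genes lie upstream of the start, run 5′ to 3′ on the strand of the gene, and have the E2F words in capitals; in Mcm5 and Mcm6 a pair of words on opposite strands overlap and appear as a single run of capitals.
Mcm5: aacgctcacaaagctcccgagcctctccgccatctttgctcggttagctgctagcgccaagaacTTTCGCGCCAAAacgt
Mcm6: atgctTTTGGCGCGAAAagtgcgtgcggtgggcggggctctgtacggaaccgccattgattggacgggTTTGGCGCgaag
Mcm7: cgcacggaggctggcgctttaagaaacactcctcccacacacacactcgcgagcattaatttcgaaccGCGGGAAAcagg
Orc1: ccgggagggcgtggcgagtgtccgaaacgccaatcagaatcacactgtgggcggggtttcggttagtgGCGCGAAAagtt
Cdc6: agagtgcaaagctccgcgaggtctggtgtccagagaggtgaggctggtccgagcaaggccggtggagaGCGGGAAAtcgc
Uhrf1: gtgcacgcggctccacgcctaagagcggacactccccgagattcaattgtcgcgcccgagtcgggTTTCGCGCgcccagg
These stretches are at chr8:75109292-75109371 (plus strand) for Mcm5, chr1:128359741-128359820 (minus) for Mcm6 and chr5:138172037-138172116 (minus) for Mcm7. Those of Orc1, Cdc6 and Uhrf1 are at chr4:108579359-108579438, chr11:98907945-98908024 and chr17:56304063-56304142, all on the plus strand.

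The deposited arrays did not share a scale, which bears on every direction below. The SD over all genes averaged 1.86 on Comma-D arrays, 1.27 on MMTV-neu arrays and 1.37 on 1:1 erbB2-positive arrays, with 1.64 to 1.87 in the other 3 groups, and the first array of the 1:1 erbB2-negative fraction stood apart from its group at 1.49 beside 1.69 and 1.74. Of 8 measured reference genes, 7 were lower and 1 higher in MMTV-neu than in Comma-D, with a median difference of -2.22. Centring each array on the mean of those genes moved the median difference of all genes between the lines from 0.40 to 2.31, and quantile normalization moved it to 0.10. Among epithelial markers Krt8, a luminal keratin, had a mean of 7.41 in Comma-D and 11.34 in MMTV-neu; the 1:50 fractions were at 7.90 (erbB2-negative) and 10.37 (erbB2-positive) and the 1:1 fractions at 10.76 and 11.28. Krt18, another luminal keratin, went the other way between the lines, from 9.34 in Comma-D to 8.57 in MMTV-neu. The basal keratin Krt14 was at 10.98 in Comma-D and 7.43 in MMTV-neu, and the epithelial adhesion genes Epcam and Cdh1 were at 9.53 and 9.41 in Comma-D and 5.88 and 7.12 in MMTV-neu. Markers of other cell types also differed between the lines, with 5 of 5 endothelial, 4 of 4 adipocyte, 4 of 6 leukocyte and 3 of 7 fibroblast genes higher in MMTV-neu, 2 leukocyte and 4 fibroblast genes lower, and all 9 immediate early genes lower, where 56.4% of all genes were higher and 30.4% lower (array means 7.61 to 7.90 against 10.01 to 10.07). The endothelial array means were 6.22 to 6.33 in MMTV-neu and 5.26 to 5.28 in Comma-D, and their part in the results below was not tested. In Comma-D 0 of 5 endothelial and 0 of 4 adipocyte markers lay above the array median, and in MMTV-neu 1 of each did. Of 7 fibroblast markers 5 did in either line, and of 6 leukocyte markers 2 did in Comma-D and 1 in MMTV-neu. Dim genes rose in general: binned by Comma-D level, all genes had medians of 0.61 and 0.95 in the lowest bin and the next. The brightest bin had -1.37. Whether cells of these other types were present was not tested.

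The replication genes split between the unmixed lines, with 9 higher and 13 lower in MMTV-neu than in Comma-D and 16 not called at a limma adjusted p under 0.05. Over all genes 86.8% were called, 56.4% higher and 30.4% lower, so the 57.9% of replication genes called lay below the background. The median SE of a difference between 2 groups was 0.19 for the replication genes and 0.14 for all genes. A larger SE makes a call harder, so a lower share called, here and below, need not mean smaller differences. The median difference of the 38 genes was -0.07, beside 0.40 for all genes. Direction went with brightness: binned by Comma-D level, all genes had medians of 0.61, 0.95, 0.02 and -1.37 from dimmest to brightest. The replication genes kept this order, at 0.31 (4 genes), -0.05 (24 genes) and -0.86 (10 genes), with 0 genes in the dimmest bin. Comma-D also enters the difference, and the part of brightness in the split by gene and role was not tested. The arrays of the lines did not overlap for 25 of the 38 genes, beside 87.2% of all genes. Falls reached 9.11-fold in Pcna and rises 1.83-fold in Tk1, where a second probe set went the other way, as given below. Of the 22 calls, 12 kept their sign after centring on the reference genes, when 34 of the 38 genes were called higher and 1 lower, and 17 kept it after quantile normalization, when 12 were higher and 13 lower. Centring raises every gene here by the same amount, so the 9 rises had to keep their sign. Within replicate numbers the median difference was -0.18, -0.20 and -0.23, and 17 genes were lower and 10 higher in all 3 numbers, beside 32.4% and 58.2% of all genes; the numbers pair no samples of the unmixed lines.

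**Figure D1:**
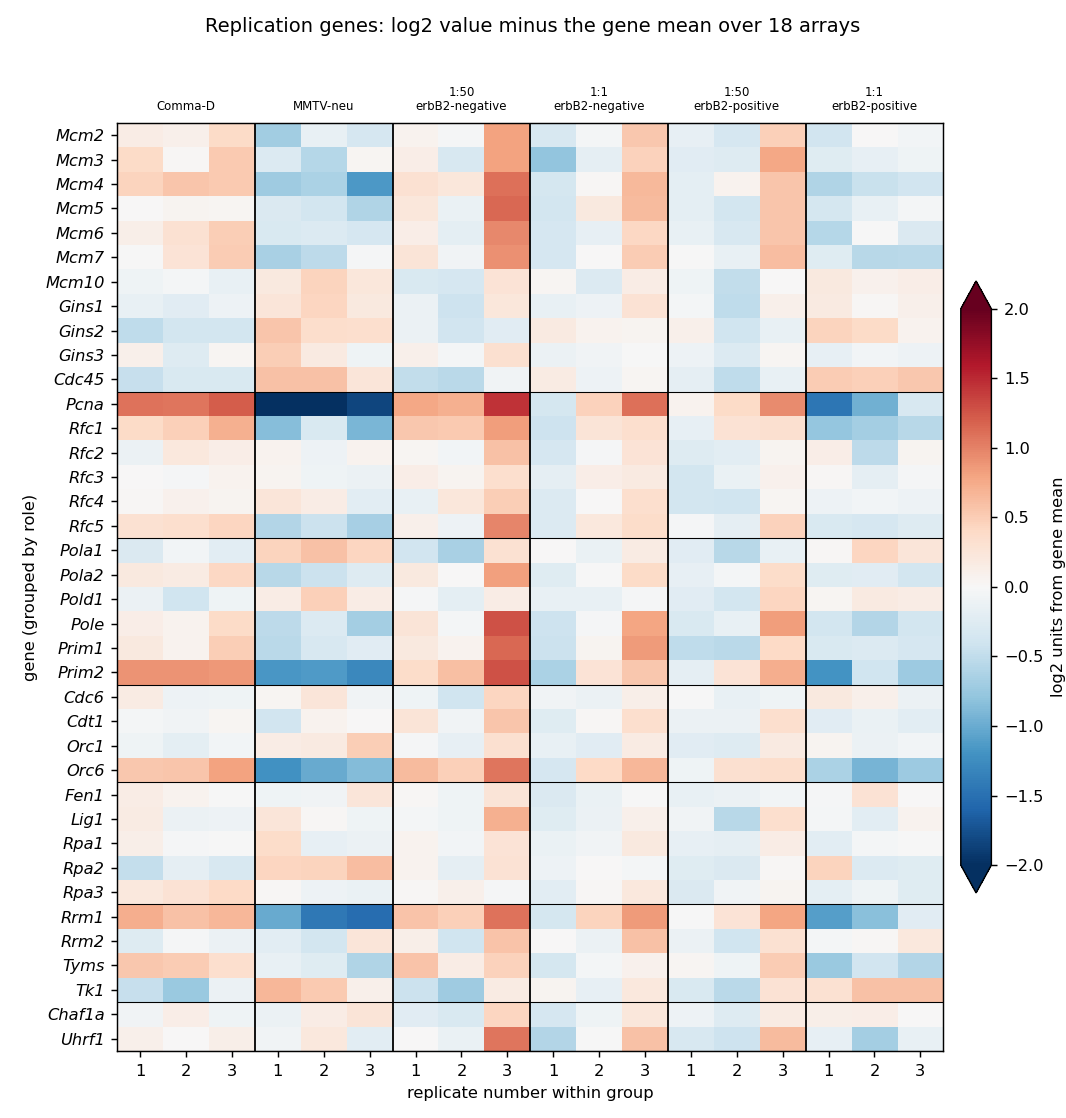
Heat map of the 38 replication genes (rows, grouped by role) on 18 arrays (columns, grouped by cell group and ordered by replicate number), coloured by log2 value minus the mean of the gene over the 18 arrays; values beyond 2 log2 units are drawn at the end of the scale. Pcna, Prim2, Rrm1 and Orc6 were lower on the deposited scale in MMTV-neu and the 1:1 erbB2-positive fraction, and array 3 was the highest of its group for 35, 35 and 36 of 38 genes in the 1:50 erbB2-negative, 1:1 erbB2-negative and 1:50 erbB2-positive fractions.

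Among the 11 helicase genes, the ring subunits Mcm4 (-1.34, SE 0.25), Mcm7, Mcm6 and Mcm2 fell in MMTV-neu, while the ring's partners Cdc45 (0.82, SE 0.14), Gins2 (0.82, SE 0.13) and Gins1, and the initiation factor Mcm10, rose. After centring all of the 4 ring subunits turned to higher, and after quantile normalization Mcm2, Mcm7 and Gins1 changed sign. Mcm4, which sits in the ring and had the widest range of group means of this role, read 8.10, 8.21 and 8.18 on the Comma-D arrays and 6.95, 7.03 and 6.51 on the MMTV-neu arrays. It read 7.96, 7.89 and 8.76 in the 1:50 erbB2-negative fraction, 7.30, 7.68 and 8.31 in the 1:1 erbB2-negative, 7.46, 7.73 and 8.22 in the 1:50 erbB2-positive, and 7.06, 7.22 and 7.28 in the 1:1 erbB2-positive. The MMTV-neu arrays lay below those of every other group for Mcm4, and in 3 of the 4 fractions the third array was the highest by a wide gap. Gins3, another GINS subunit, had the narrowest range and read 6.30, 5.95 and 6.24 in Comma-D and 6.69, 6.38 and 6.12 in MMTV-neu. In the fractions it read 6.31, 6.16 and 6.52, then 6.08, 6.13 and 6.19, then 6.11, 5.93 and 6.25, and last 6.05, 6.15 and 6.11, in the order used for Mcm4. Every other group overlapped with Comma-D for Gins3, and its difference between the lines was 0.23 (95% interval -0.06 to 0.52).

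Cdc45, which joins the loaded ring to form the active helicase, went the other way from Mcm4. Its arrays read 7.32, 7.48 and 7.47 in Comma-D, 8.36, 8.37 and 8.02 in MMTV-neu, and 8.29, 8.26 and 8.33 in the 1:1 erbB2-positive fraction. It read 7.30, 7.24 and 7.71 in the 1:50 erbB2-negative fraction, 7.94, 7.67 and 7.82 in the 1:1 erbB2-negative and 7.60, 7.27 and 7.63 in the 1:50 erbB2-positive. Every array of MMTV-neu and of the 1:1 erbB2-positive fraction was above every array of the other 4 groups. Between the lines Cdc45 rose 1.77-fold (limma adjusted p = 2.78e-05), and it rose after quantile normalization too (1.46). It was at 2.73 after centring, but centring raises every gene of this comparison by the same amount, so a rise had to remain.

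Gins2, Gins1 and Mcm10 were the other helicase genes that rose. Gins2 read 7.42, 7.57 and 7.56 in Comma-D, 8.48, 8.28 and 8.26 in MMTV-neu, 7.82, 7.55 and 7.71 and then 8.12, 8.0 and 7.99 in the erbB2-negative fractions at 1:50 and 1:1, and 8.03, 7.53 and 7.78 and then 8.37, 8.31 and 8.0 in the erbB2-positive ones. The arrays of MMTV-neu and of both 1:1 fractions lay wholly above Comma-D for Gins2, and those of the 1:50 fractions did not. Mcm10 read 6.45, 6.49 and 6.40 in Comma-D and 6.74, 6.98 and 6.77 in MMTV-neu, and Gins1 5.78, 5.69 and 5.83 against 6.17, 6.35 and 6.12. The fractions ran from 6.05 to 6.81 in Mcm10 and from 5.42 to 6.22 in Gins1, across the gap between the lines.

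The clamp and its loader held the largest change. Pcna, the sliding clamp, read 10.19, 10.17 and 10.32 in Comma-D and 7.10, 6.75 and 7.27 in MMTV-neu. In the fractions it read 9.88, 9.81 and 10.54 (1:50 erbB2-negative), 8.75, 9.56 and 10.21 (1:1 erbB2-negative), 9.17, 9.48 and 10.05 (1:50 erbB2-positive) and 7.66, 8.14 and 8.78 (1:1 erbB2-positive). MMTV-neu was lowest without overlap and the 1:1 erbB2-positive fraction next, with its highest array just above the lowest of the 1:1 erbB2-negative fraction. Between the lines Pcna fell by 3.19 (SE 0.33, limma adjusted p = 1.76e-07), and it fell also after centring (-1.28, adjusted p = 2.44e-05) and quantile normalization (-2.77, adjusted p = 1.35e-06). A second probe set annotated to Pcna gave group means within 0.1 of these, at 10.23 in Comma-D and 6.97 in MMTV-neu. The loader subunits Rfc1 (-1.21, SE 0.20) and Rfc5 (-0.92, SE 0.22) also fell, but Rfc1 read 0.70 higher after centring, and Rfc5 changed sign under both other scalings. Rfc3, a small loader subunit with the narrowest range here, lay at 7.78, 7.74 and 7.83 in Comma-D and 7.83, 7.69 and 7.65 in MMTV-neu, and at 7.40 to 8.11 over the 12 arrays of the fractions. The 1:1 erbB2-positive arrays lay below the 1:50 erbB2-negative ones, all other pairs of groups overlapped, and the difference between the lines was -0.06 (95% interval -0.32 to 0.20).

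Polymerase alpha and primase form a single complex of 4 subunits that starts each new strand, and these genes moved apart. The catalytic subunit Pola1 rose by 0.68 (SE 0.18) in MMTV-neu, the regulatory subunits Pola2 (-0.67, SE 0.19) and Prim2 (-2.08, SE 0.29) fell, and the small catalytic primase subunit Prim1 differed by -0.62 (95% interval -1.26 to 0.03) without a call. Pola2 was higher in MMTV-neu after centring (1.24), and Prim2 was no longer called (-0.18, adjusted p = 0.46). Prim2 read 8.27, 8.27 and 8.23 in Comma-D and 6.21, 6.24 and 6.08 in MMTV-neu. It read 7.73, 7.98 and 8.65 in the 1:50 erbB2-negative fraction, 6.74, 7.65 and 7.92 in the 1:1 erbB2-negative, 7.20, 7.65 and 8.10 in the 1:50 erbB2-positive, and 6.17, 6.97 and 6.64 in the 1:1 erbB2-positive. Of the 1:1 erbB2-positive arrays the first fell among those of MMTV-neu, and the first 1:1 erbB2-negative array fell among the 1:1 erbB2-positive ones. Pola1 read 6.53, 6.78 and 6.62 in Comma-D and 7.27, 7.42 and 7.27 in MMTV-neu. In the fractions Pola1 read 6.44, 6.18 and 7.13 (1:50 erbB2-negative), 6.84, 6.70 and 7.0 (1:1 erbB2-negative), 6.60, 6.28 and 6.68 (1:50 erbB2-positive) and 6.86, 7.26 and 7.07 (1:1 erbB2-positive). All MMTV-neu arrays were above every array of the other groups for Pola1. Pold1, the catalytic subunit of polymerase delta, varied least in this role; it read 7.02, 6.75 and 7.05 in Comma-D and 7.29, 7.62 and 7.28 in MMTV-neu. In the 4 fractions Pold1 read 7.12, 6.95 and 7.30, then 7.0, 7.0 and 7.13, then 6.92, 6.77 and 7.58, and 7.18, 7.32 and 7.29. The rise of 0.46 (SE 0.17, limma adjusted p = 0.0173) between the lines compares with an SD of 0.43 within the 1:50 erbB2-positive fraction.

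Of the 4 loading genes, Orc6 fell and Orc1 rose in MMTV-neu, both subunits of the origin recognition complex, while Cdc6 and Cdt1 were not called. Orc6 read 7.87, 7.89 and 8.14 in Comma-D and 6.13, 6.32 and 6.47 in MMTV-neu. In the fractions it read 7.96, 7.81 and 8.40 (1:50 erbB2-negative), 7.0, 7.73 and 8.0 (1:1 erbB2-negative), 7.25, 7.65 and 7.69 (1:50 erbB2-positive) and 6.71, 6.41 and 6.60 (1:1 erbB2-positive). Every array of MMTV-neu and the 1:1 erbB2-positive fraction was below every array elsewhere. Orc6 fell by 1.66 (SE 0.21, limma adjusted p = 1.6e-06) between the lines, yet after centring the difference was 0.25 (adjusted p = 0.288). Orc1 read 5.34, 5.22 and 5.36 in Comma-D, 5.57, 5.60 and 5.91 in MMTV-neu and 5.16 to 5.74 in the fractions. It rose by 0.39 (SE 0.15) and was at -0.31 after quantile normalization. Cdc6, which opens the way for the Mcm ring, had the narrowest range of the 38 genes, at 6.34, 6.07 and 6.09 in Comma-D and 6.21, 6.42 and 6.11 in MMTV-neu. It lay between 5.78 and 6.60 on the 12 arrays of the fractions, and both of these extremes came from the 1:50 erbB2-negative fraction. The difference between the lines was 0.08 (95% interval -0.26 to 0.42).

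The 3 subunits of the single-strand binding protein RPA differed in direction. Rpa2 rose by 0.82 (SE 0.17), Rpa3 fell by 0.37 (SE 0.11) and the large subunit Rpa1 differed by less than 0.01, with a 95% interval of -0.31 to 0.30. After centring Rpa3 was 1.54 higher in MMTV-neu. A second probe set annotated to Rpa3 had means of 7.36 in Comma-D and 6.40 in MMTV-neu, a wider gap than the 7.46 and 7.09 of the one used. Rpa2 read 6.46, 6.75 and 6.62 in Comma-D and 7.37, 7.38 and 7.55 in MMTV-neu. At 1:50 it read 7.0, 6.75 and 7.22 (erbB2-negative) and 6.70, 6.65 and 6.96 (erbB2-positive), and at 1:1 it read 6.83, 6.94 and 6.90 (erbB2-negative) and 7.38, 6.65 and 6.69 (erbB2-positive). Only the first of the 1:1 erbB2-positive arrays reached the MMTV-neu level. Rpa1 read 7.78, 7.64 and 7.66 in Comma-D, 8.03, 7.50 and 7.54 in MMTV-neu, and 7.45 to 7.94 on the arrays of the fractions, with all groups overlapping. The flap nuclease Fen1 (-0.04) and the ligase Lig1 (0.08) were not called.

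Of the 4 genes of nucleotide supply, 1 rose and 2 fell. Rrm1, the large subunit of ribonucleotide reductase, fell by 1.97 (SE 0.28, limma adjusted p = 5.45e-06) in MMTV-neu, while the small subunit Rrm2 differed by 0.02 (95% interval -0.48 to 0.52). Rrm1 read 9.94, 9.80 and 9.88 in Comma-D and 8.22, 7.79 and 7.70 in MMTV-neu. In the fractions it read 9.79, 9.69 and 10.31 (1:50 erbB2-negative), 8.88, 9.67 and 10.08 (1:1 erbB2-negative), 9.22, 9.50 and 10.01 (1:50 erbB2-positive) and 8.12, 8.38 and 8.99 (1:1 erbB2-positive). MMTV-neu and the 1:1 erbB2-positive fraction held the lowest means and overlapped in 1 array; centring reduced the difference between the lines to -0.06 (adjusted p = 0.769). Rrm2 read 8.24, 8.48 and 8.38 in Comma-D and 8.29, 8.12 and 8.74 in MMTV-neu. At 1:50 it read 8.61, 8.09 and 9.07 (erbB2-negative) and 8.38, 8.09 and 8.80 (erbB2-positive), and at 1:1 it read 8.50, 8.38 and 9.08 (erbB2-negative) and 8.46, 8.53 and 8.70 (erbB2-positive). All groups overlapped, and in each fraction the third array was the highest. Tyms, which makes thymidylate, fell by 0.79 (SE 0.17) as deposited but was 1.11 higher after centring and not called after quantile normalization (-0.17, adjusted p = 0.407).

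Tk1, the thymidine salvage kinase, read 7.93, 7.67 and 8.28 in Comma-D, 9.06, 8.93 and 8.51 in MMTV-neu, and 8.70, 8.98 and 8.99 in the 1:1 erbB2-positive fraction. It read 7.97, 7.69 and 8.56 in the 1:50 erbB2-negative fraction, 8.45, 8.23 and 8.61 in the 1:1 erbB2-negative and 8.10, 7.86 and 8.68 in the 1:50 erbB2-positive. The lines did not overlap, and the third arrays of these 3 fractions reached the lowest MMTV-neu array. It rose by 0.87 (SE 0.23) between the lines, but this rests on the probe set used. A second probe set annotated to Tk1 went the other way, with means of 8.03 in Comma-D and 7.47 in MMTV-neu, and the mean of both gave 0.16 (adjusted p = 0.514). All other Tk1 values in the text share this limit.

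Neither gene of the chromatin group was called between the lines. Uhrf1, which carries DNA methylation past the fork, read 6.52, 6.43 and 6.54 in Comma-D and 6.35, 6.64 and 6.21 in MMTV-neu. In the fractions it read 6.43, 6.29 and 7.50, then 5.83, 6.41 and 7.0, then 6.10, 6.02 and 7.05, and 6.26, 5.75 and 6.27, in the order used before. The third array of the first 3 fractions stood at 7.50, 7.0 and 7.05, higher than any other array of the series. Chaf1a, a histone chaperone of the fork, read 7.48, 7.68 and 7.47 in Comma-D, 7.43, 7.70 and 7.80 in MMTV-neu and 7.21 to 7.98 in the fractions, with a difference between the lines of 0.10 (95% interval -0.28 to 0.48).

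**Figure D2:**
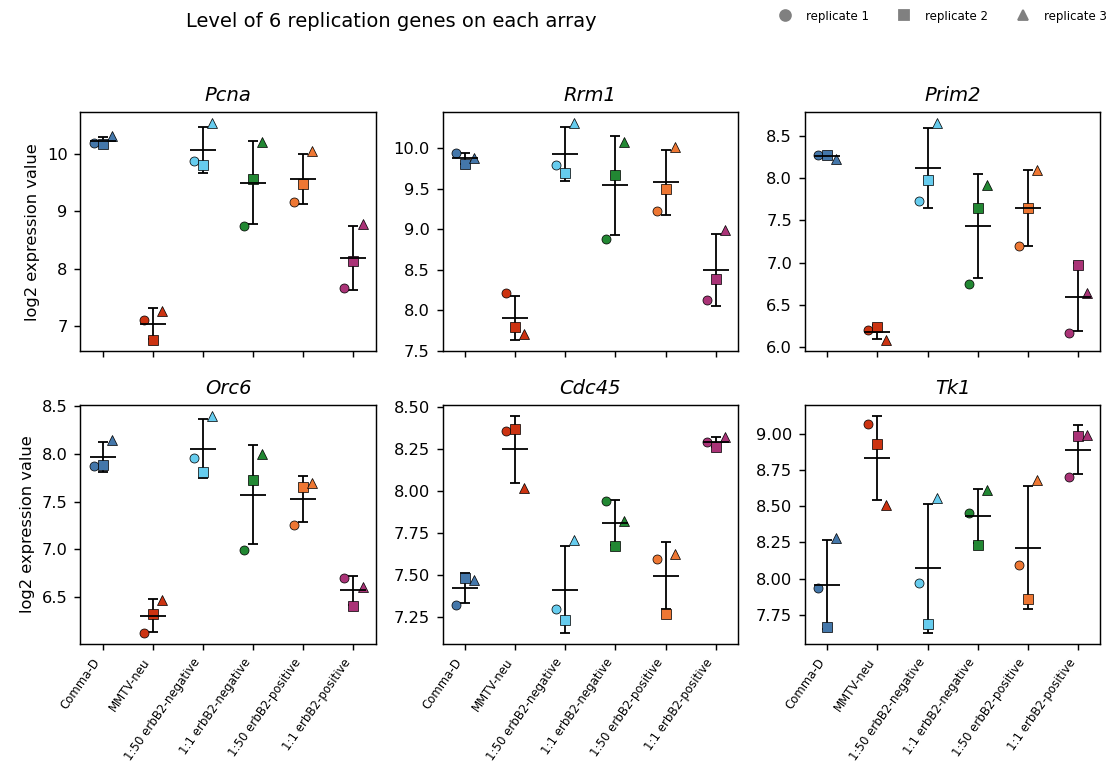
Level of Pcna, Rrm1, Prim2, Orc6, Cdc45 and Tk1 on each of the 18 arrays (log2 value, vertical axes that do not start at 0), with symbols for replicate numbers 1 to 3, a bar at the group mean and whiskers of 1 SD (n = 3). On the deposited scale Pcna, Rrm1, Prim2 and Orc6 were lowest in MMTV-neu and the 1:1 erbB2-positive fraction and Cdc45 and Tk1 highest there; the other probe set of Tk1 did not follow this.

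The 1:1 erbB2-positive fraction, labelled cancer, differed from MMTV-neu in 2 of the 38 genes, against 18.3% of all genes (4.21% higher and 14.1% lower). Pcna was higher by 1.15 (SE 0.33, limma adjusted p = 0.024; 8.19 ± 0.56 against 7.04 ± 0.27, SD, n = 3) and Rpa2 lower by 0.52 (SE 0.17, adjusted p = 0.0381). The arrays of Pcna did not overlap and those of Rpa2 did. No gene was called without MMTV-neu replicate 2 or without 1:1 erbB2-positive replicate 2 or 3, and 1 was called without MMTV-neu replicate 1, so the calls were lost when single arrays were left out. The arrays of 7 genes did not overlap, beside 32.2% of all genes. After centring 34 of the 38 genes were called lower than in MMTV-neu. Centring lowers every gene of this comparison by the same amount, so this count is not read as a result about the replication genes. Among the reference genes Actb was 3.33 higher in the fraction, Rplp0 1.29, Tbp 0.68 and Pgk1 0.64. Hprt, Ppia, Sdha and Ywhaz were not called.

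Set against Comma-D, the same fraction had 4 replication genes higher and 11 lower, where 78.3% of all genes were called, 45.8% higher and 32.5% lower. Pcna was lower by 2.03 (SE 0.33), Prim2 by 1.67 (SE 0.29), Orc6 by 1.39 (SE 0.21) and Rrm1 by 1.38 (SE 0.28), followed by Rfc1, Tyms, Mcm4, Mcm7, Rfc5, Pola2 and Rpa3, the last by 0.47 (SE 0.11). Tk1 (0.93, SE 0.23), Cdc45 (0.87, SE 0.14), Gins2 (0.71, SE 0.13) and Pola1 (0.42, SE 0.18) were higher. The arrays of the 2 groups did not overlap for these 15 genes, nor for 85.1% of all genes. After centring, 6 of the 15 changed sign and 26 genes were called higher and 2 lower; after quantile normalization Mcm7 and Rfc5 changed sign and the split was 9 higher and 12 lower. A fit of these 2 groups alone called 24 genes, 7 higher and 17 lower.

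The 1:50 erbB2-positive fraction, labelled redirected, had no replication gene called against Comma-D, against a background of 5.71% (1.17% higher and 4.54% lower). The median difference was -0.12, 29 of 38 genes were below zero, and 2 had an unadjusted limma p under 0.05, beside 22% of all genes. The lowest were Pcna at -0.66 (95% interval -1.35 to 0.03) and Prim2 at -0.61 (95% interval -1.22 to -0.01), and the highest Gins2 at 0.26 (95% interval -0.01 to 0.53). These intervals leave room for differences of over 2-fold in Pcna. The arrays did not overlap for 6 of the 38 genes, Pcna and Prim2 among them, beside 37.5% of all genes. Within replicate numbers the median difference was -0.27, -0.33 and 0.13, so the sign in the third number was opposite to the others. Leaving out the 4 co-culture arrays numbered 3, a choice made after the data were seen, gave 2 genes lower.

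Against MMTV-neu, the 1:50 erbB2-positive fraction had 9 replication genes higher and 8 lower (83.4% of all genes called, 25.8% higher and 57.6% lower). The MMTV-neu arrays serve in this comparison and in that of the lines, so the values are given side by side only. The arrays of the fraction and of MMTV-neu did not overlap for 15 of the 38 genes, beside 81.4% of all genes. Pcna was 2.53 (SE 0.33) higher than in MMTV-neu, and MMTV-neu was 3.19 below Comma-D. For Rrm1 the values were 1.67 (SE 0.28) and 1.97, for Prim2 1.47 (SE 0.29) and 2.08, and for Orc6 1.23 (SE 0.21) and 1.66. Mcm4, Rfc1, Rfc5, Tyms and Pola2 were also higher than in MMTV-neu. Lower were Pola1 (-0.80, SE 0.18), Cdc45 (-0.75, SE 0.14), Rpa2, Tk1 (-0.62, SE 0.23), Gins2, Mcm10, Gins1 and Orc1. After centring, 34 genes were called lower and 1, Pcna (0.87, adjusted p = 0.0018), higher, and 7 of the 17 calls changed sign. The Tk1 call was lost without MMTV-neu replicate 1 or 2 or without 1:50 erbB2-positive replicate 1 or 2.

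**Figure D3:**
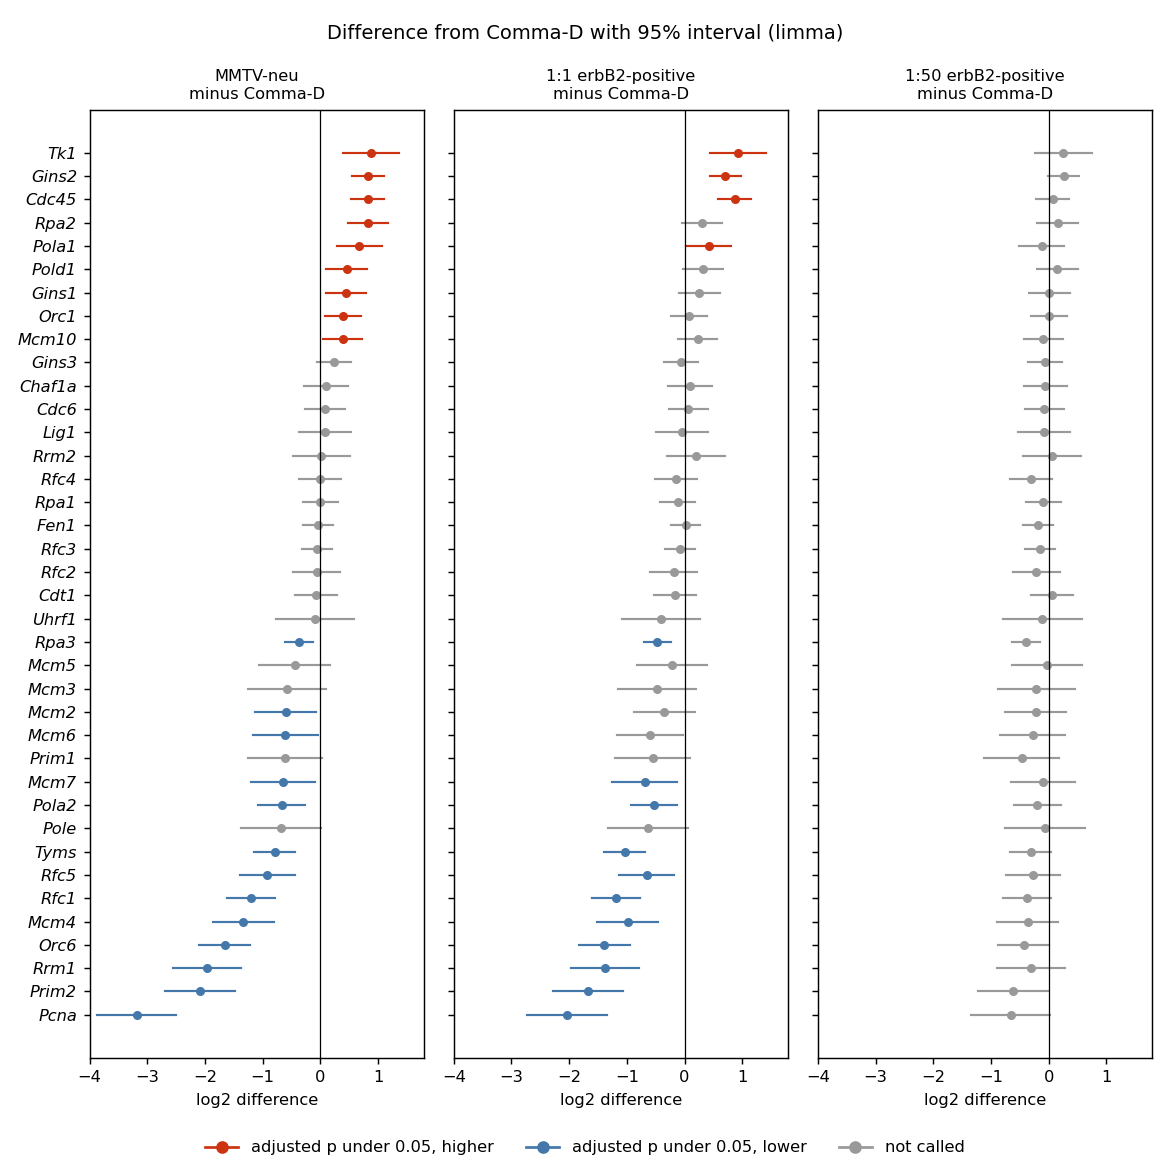
Difference of MMTV-neu, the 1:1 erbB2-positive and the 1:50 erbB2-positive fraction from Comma-D for each of the 38 genes (horizontal axis, log2 units; points are limma estimates and bars 95% intervals; n = 3 arrays per group). The panels share the Comma-D arrays; 22, 15 and 0 genes were called, and after centring on reference genes 10 of the 22 and 6 of the 15 changed sign.

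The 2 erbB2-positive fractions were compared directly to ask how the ratio of the lines went with expression in that fraction. In the 1:50 and 1:1 erbB2-positive fractions Krt14 was at 11.49 and 9.70, Epcam at 9.04 and 6.84, and Krt8 at 10.37 and 11.28. Krt18 went the other way from Krt8, at 8.74 and 8.49. The other epithelial markers were Krt5 at 11.15 and 9.67, Cdh1 at 9.44 and 7.57, and Trp63 at 8.74 and 8.18. Of these only Trp63 was not called (limma adjusted p = 0.184). The share of each line in the fractions was not tested. The 1:50 fraction had 7 genes higher and 4 lower than the 1:1 fraction, with 71.4% of all genes called (27.4% higher and 44% lower). Pcna was higher by 1.37 (SE 0.33), Rrm1 by 1.08 (SE 0.28), Prim2 by 1.06 (SE 0.29) and Orc6 by 0.96 (SE 0.21), with Rfc1, Tyms and Mcm4 also higher. Cdc45 (-0.80, SE 0.14), Tk1 (-0.68, SE 0.23), Pola1 and Gins2 (-0.45, SE 0.13) were lower. The arrays did not overlap for 17 of the 38 genes, beside 78.7% of all genes. The replicate block called 14 genes, 9 higher and 5 lower, and added Mcm7 and Pole higher and Mcm10 lower. The share of all genes called rose with the block too, to 77.8%. Within numbers 1, 2 and 3 the difference of Pcna was 1.51, 1.34 and 1.27 and that of Cdc45 -0.69, -0.99 and -0.70. The split moved with the scale: 0 higher and 25 lower after centring, and 3 higher and 9 lower after quantile normalization. Pcna was then at 0.52 (adjusted p = 0.0517) and 0.74 (adjusted p = 0.0678), so its call was lost under both, while Cdc45 was called lower under both (-1.65 and -1.30). Centring lowers every gene of this comparison by the same amount, so Cdc45 had to stay lower under it. The Tk1 call was lost without 1:50 erbB2-positive replicate 2 (adjusted p = 0.09).

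The erbB2-negative fractions had few replication genes called against Comma-D, 0 at 1:50 and 4 at 1:1. In the 1:50 erbB2-negative fraction no replication gene was called (background 1.68%, 0.592% higher and 1.08% lower), 2 had an unadjusted limma p under 0.05, the median difference was 0.09 and values ran from -0.26 in Rpa3 to 0.38 in Mcm5. In the 1:1 erbB2-negative fraction Gins2 (0.52, SE 0.13) and Cdc45 (0.39, SE 0.14) were higher and Prim2 (-0.82, SE 0.29) and Tyms (-0.56, SE 0.17) lower, with 35.7% of all genes called, 14.9% higher and 20.9% lower. The arrays of 7 genes did not overlap with Comma-D, beside 55.2% of all genes. Of 7 epithelial markers 2 were higher than in Comma-D (Krt8 by 3.35 and Krt5 by 1.23) and 3 lower (Krt18 by 1.03, Epcam by 1.87 and Cdh1 by 1.43), and all 9 immediate early genes were lower. The part of these in the 4 calls was not tested. Only Gins2 was called without Comma-D replicate 1 or 2 or without 1:1 erbB2-negative replicate 1; 2 genes were called without Comma-D replicate 3, and 8 without 1:1 erbB2-negative replicate 3. Without the 4 co-culture arrays numbered 3 the count was 15, with 2 higher and 13 lower. Both other scalings gave 3 higher and 0 lower.

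Between the erbB2-negative fractions, Rfc1 (0.57, SE 0.20) and Tyms (0.50, SE 0.17) were higher and Cdc45 (-0.40, SE 0.14) lower at 1:50 than at 1:1, against a background of 30.3% (21.4% higher and 8.87% lower). The arrays of 3 genes did not overlap, beside 56.9% of all genes. With the replicate number as a block in the 12 co-culture arrays, where the numbers paired the samples, 8 genes were called, 6 higher and 2 lower: Pcna (0.57, SE 0.14, limma adjusted p = 0.0107), Prim2, Mcm4, Rrm1, Rfc1 and Tyms higher, and Gins2 and Cdc45 lower. With this block 47.3% of all genes were called. Pcna differed by 1.13, 0.25 and 0.34 in numbers 1, 2 and 3, so the first number carried the largest part. The first 1:1 erbB2-negative array is the one with the narrow range of values; without it no gene was called in the unblocked fit, nor without 1:50 erbB2-negative replicate 1, while 1 was called without 1:50 erbB2-negative replicate 2 and 6 without 1:1 erbB2-negative replicate 3. After centring 0 genes were called and after quantile normalization 1.

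Within the 1:1 co-culture the erbB2-positive fraction had 6 genes lower and 1 higher than the erbB2-negative (56.1% of all genes called, 35.2% higher and 21% lower). Pcna was lower by 1.31 (SE 0.33), Rrm1 by 1.04 (SE 0.28), Orc6 by 1.00 (SE 0.21), Prim2 by 0.84 (SE 0.29), Rfc1 by 0.73 (SE 0.20) and Tyms by 0.48 (SE 0.17), and Cdc45 was higher by 0.48 (SE 0.14). The arrays of 7 genes did not overlap, beside 55% of all genes. The replicate block raised the count to 11, 9 lower and 2 higher, and added Mcm4, Mcm7, Pole and Tk1. It also raised the share of all genes called, to 65.8%. Pcna was lower in every replicate number, by 1.09, 1.42 and 1.43. Without 1:1 erbB2-negative replicate 1 the count was 13, and without the 4 arrays numbered 3 it was 4. The split was 23 higher and 1 lower after centring, with Pcna still lower (-0.56, adjusted p = 0.0395), and 4 higher and 4 lower after quantile normalization.

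Within the 1:50 co-culture no replication gene was called between the fractions, with or without the block, and limma called 0.01% of all genes. Even so 35 of 38 genes were below zero in the erbB2-positive fraction, with a median of -0.24 beside 0.00 for all genes. An unadjusted limma p under 0.05 was found for 5 of the 38, about the share of all genes (13.4%). In all 3 replicate numbers 26 of the 38 (68.4%) were lower, beside 31.2% of all genes. The lowest were Prim1 (-0.69, 95% interval -1.34 to -0.05), Orc6 (-0.52, 95% interval -0.97 to -0.08) and Pcna (-0.51, 95% interval -1.20 to 0.18), all short of a call at limma adjusted p = 0.344, 0.321 and 0.487. These values ignore the pairing by replicate number. With the block the SEs were 0.21, 0.19 and 0.14, and the adjusted p were 0.115, 0.142 and 0.0961, still short of a call. After centring the median was -0.03 and after quantile normalization -0.12.

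The interaction, which is the difference between ratios in the erbB2-positive fractions minus that in the erbB2-negative ones, was called for no replication gene, against 2.75% of all genes, 2.45% higher and 0.301% lower, and 1 gene had an unadjusted limma p under 0.05. With the replicate block in the 12 arrays, Pcna (0.80, SE 0.20, adjusted p = 0.0315) and Rrm1 (0.69, SE 0.19, adjusted p = 0.0443) were called, where 12.4% of all genes were. Their adjusted p without the block were 0.286 and 0.284. Without 1:1 erbB2-negative replicate 1, the unblocked fit called 3 genes.

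In the 1:50 erbB2-negative fraction the median SD of the replication genes was 0.37, beside 0.08 for all genes and 0.11 for the replication genes in Comma-D. It was 0.30 beside 0.19 in the 1:1 erbB2-negative fraction, 0.30 beside 0.14 in the 1:50 erbB2-positive, and 0.13 beside 0.14 in the 1:1 erbB2-positive, where the replication genes varied no more than all genes. The mean of the 38 genes was 7.60, 7.44 and 8.12 on the 3 arrays of that fraction, 7.25, 7.51 and 7.85 in the 1:1 erbB2-negative, 7.34, 7.29 and 7.82 in the 1:50 erbB2-positive and 7.29, 7.33 and 7.37 in the 1:1 erbB2-positive. It was 7.61, 7.60 and 7.70 in Comma-D and 7.31, 7.34 and 7.27 in MMTV-neu. The third array was thus the highest in 3 fractions by a gap that exceeded any difference of this mean among the unmixed arrays of a line.

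Gene by gene, the third array was the highest of its group for 35, 35 and 36 of the 38 genes in those 3 fractions and for 14 in the 1:1 erbB2-positive, against 35%, 29.9%, 19.4% and 24.5% of all genes. Other lists moved with the number too: it was highest for 7, 9 and 7 of 9 immediate early genes in those 3 fractions, for 4, 7 and 3 of 8 reference genes and for 0 of 7 fibroblast markers in each. It exceeded the mean of the other 2 arrays by over 0.5 log2 units, a threshold chosen after the data were seen, in 23 genes of the 1:50 erbB2-negative fraction (60.5%, background 1.71%), 15 of the 1:1 erbB2-negative (39.5%, background 8.1%) and 18 of the 1:50 erbB2-positive (47.4%, background 1.56%). In the 1:1 erbB2-positive fraction it did so in 2 genes (5.26%, background 3.7%), Pcna and Rrm1, at 0.87 and 0.74. In Comma-D it did so in 0 (background 0.115%) and in MMTV-neu in 2 (5.26%, background 3.2%). Since the arrays carry no date or batch in the labels, what the number 3 stands for is not given in the sources used here, and its part in these values was not tested.

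The excess of the third array had a median of 0.78 over the 11 helicase genes of the 1:50 erbB2-negative fraction, 0.81 over priming and polymerases, 0.52 over clamp and loader, 0.64 over nucleotide supply, 0.49 over loading, 0.30 over flaps, ligation and RPA, and 0.91 over the 2 chromatin genes. Pole, the catalytic subunit of polymerase epsilon, was among the highest at 1.15, 1.00 and 1.06 in the 1:50 erbB2-negative, 1:1 erbB2-negative and 1:50 erbB2-positive fractions. Uhrf1 was at 1.14, 0.88 and 1.00, Mcm5 at 1.11, 0.72 and 0.84, and Prim1 at 1.02, 1.04 and 0.93. Gins2 stood out among helicase genes for its absence, at 0.02, -0.07 and 0.00, as did Rpa3 in the first of these at -0.08. Among the 32 genes with a promoter window, the 13 with an E2F word, the 6 shown among them, had medians of 0.78, 0.35 and 0.65 in the 3 fractions, and the 19 without one 0.57, 0.42 and 0.43, with ranges that overlapped in every group.

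**Figure D4:**
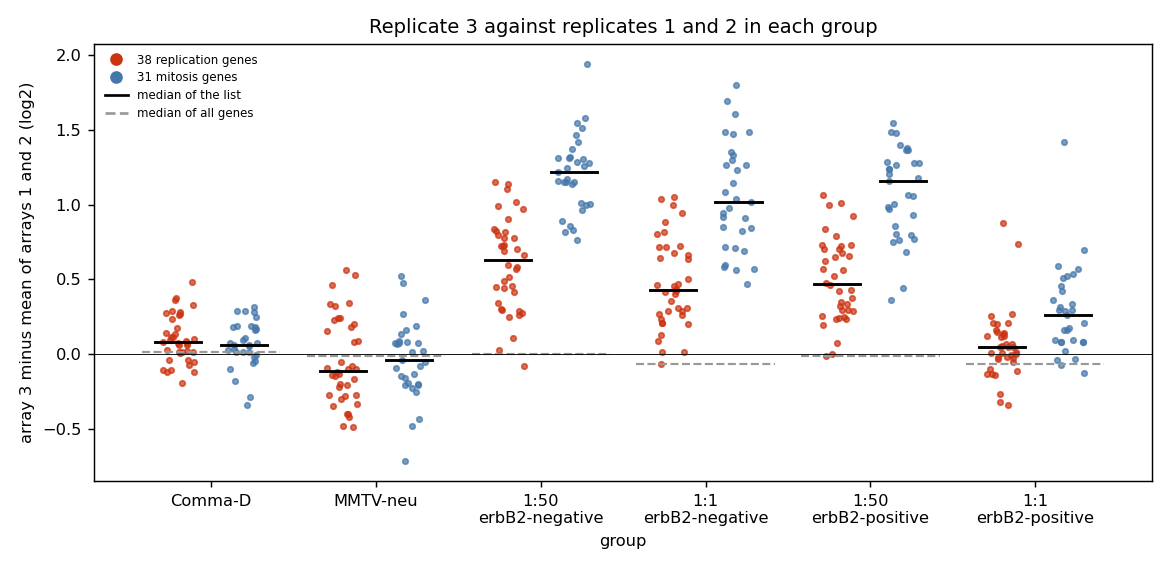
Array 3 minus the mean of arrays 1 and 2 (log2 units, vertical axis) in each of the 6 groups for the 38 replication genes (red) and 31 mitosis genes (blue); each point is a gene, black bars are list medians and dashed lines the median of all genes. Medians of the replication genes were 0.63, 0.43 and 0.47 in the 1:50 erbB2-negative, 1:1 erbB2-negative and 1:50 erbB2-positive fractions and 0.05 in the 1:1 erbB2-positive, and those of the mitosis genes were 1.22, 1.02, 1.16 and 0.26.

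Other genes of the cell cycle were read from lists beside the 38. Over all genes 56.4% were higher and 30.4% lower in MMTV-neu than in Comma-D, with a median of 0.40, and 27.4% were higher and 44% lower in the 1:50 than in the 1:1 erbB2-positive fraction. Of 49 further replication genes 17 were higher and 19 lower in MMTV-neu than in Comma-D (median -0.24), led by falls of the Mcm-binding protein Mcmbp (-2.36, SE 0.27), the polymerase delta subunit Pold2 (-2.13, SE 0.25) and the origin recognition subunits Orc3 (-2.06, SE 0.23) and Orc4 (-1.86, SE 0.18). Of 28 regulators of entry into S phase 5 were higher and 15 lower (median -0.61), with cyclin D2 (Ccnd2, -3.07, SE 0.13), cyclin A2 (Ccna2, -2.95, SE 0.53), the retinoblastoma gene Rb1 (-2.92, SE 0.21) and Myc (-2.46, SE 0.28) changed most. Of 31 mitosis genes 2 were higher and 8 lower (median -0.48), led by the checkpoint gene Mad2l1 (-3.90, SE 0.58) and the cytokinesis gene Anln (-2.24, SE 0.49). Between the erbB2-positive fractions 15 of the 49 further replication genes were higher at 1:50 and 8 lower, 13 and 2 of the 28 regulators, and 3 and 0 of the mitosis genes. The third array exceeded the other 2 by more in the mitosis genes than in the replication genes, and was the highest of its group for all 31 mitosis genes in the same 3 fractions and for 25 in the 1:1 erbB2-positive; the other replication genes had medians of 0.33, 0.32 and 0.20 in the 3 fractions and the regulators 0.17, 0.37 and 0.18.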

How the data were processed

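RNA of 18 samples, 3 in each of 6 groups taken from the sample titles, was read on mouse gene arrays. Per the submitters' processing notes, RMA, R 3.1.2 and limma were used, and the table as deposited holds log2 values; background correction, summarisation and filters are otherwise not given in the sources used here. Arrays give no read depth, so their number limits the precision. Of 35556 probe sets, 21789 are annotated to 1 gene, 1621 to several and 12146 are not in the annotation; those of 1 gene gave 19938 genes, each read through the probe set with the highest mean. The table held 0 columns of other samples. The 2 most alike arrays differed by up to 0.84 at a gene, so no array was taken for a copy.

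One limma model (version 3.58.1, R 4.3.3) of 6 group means, with moderated variances and 12 residual degrees of freedom, covered the 18 arrays; two-sided p-values were adjusted by Benjamini and Hochberg across the 19938 genes, and 0.05 was the threshold of a call. No filter on low values was applied; 36 of the 38 genes passed the alternative that leaves out the lowest 40%. The fit was checked on simulated data. Alternatives were centring on 8 reference genes, quantile normalization, averaged probe sets, a filter on low values, trend and robust priors, array weights (gene by gene, 0.15 to 9.92), a replicate block in 18 or in the 12 co-culture arrays, a fit of the compared groups and leaving out each array. After seeing the data, fits without the 4 co-culture arrays numbered 3 and without the MMTV-neu arrays were added.

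The pairing of samples by replicate number was checked on the correlation over genes of deviations from the group mean. Among co-culture arrays 17 of 18 pairs with the same number were over 0.1, with all 3 pairs over it in each of the 4 comparisons made between fractions, and 4 of 36 pairs with different numbers were. With Comma-D or MMTV-neu in the pair 2 of 27 were, so the numbers were taken to pair samples among the fractions only.

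The genes and lists were chosen with earlier results of these data known. Any of the 38 genes may be named; values of every array are given for the genes with the widest and narrowest range of group means in each role, and for genes called against the direction of most calls in a comparison. From each other list, up to 4 genes with the largest differences may be named. Promoter windows come from RefSeq on GRCm38.p6.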

Additional observations from a re-analysis of the deposited data

Results flagged for a closer look

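The difference between ratios had opposite signs in the erbB2-positive and erbB2-negative fractions for Fen1, the flap nuclease. At 1:50 against 1:1 it was -0.13, -0.40 and -0.06 in the erbB2-positive fractions of numbers 1, 2 and 3, and 0.31, 0.04 and 0.27 in the erbB2-negative ones, so every number moved one way in the first and the other way in the second. The interaction was -0.41 (SE 0.17, limma adjusted p = 0.181), which is not past the threshold.

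Ccnd2, the cyclin D2 gene of the S phase entry list, had an interaction of 1.37 (SE 0.18, limma adjusted p = 0.00156). Between ratios it was 1.63 (SE 0.13) higher at 1:50 in the erbB2-positive fractions and 0.25 (SE 0.13) higher in the erbB2-negative ones, the latter not called. It was the 1 gene of the 28 on that list, and of the 38 replication genes none, with a called interaction.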

How the results depend on the processing

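Values are counts of the 38 genes called, and for single genes log2 differences. Centring on the reference genes, which themselves fell in MMTV-neu, gave 35 called in MMTV-neu against Comma-D (22 as deposited), 35 in 1:50 erbB2-positive against MMTV-neu (17), 25 between the erbB2-positive fractions (11), 34 in 1:1 erbB2-positive against MMTV-neu (2), 28 in 1:1 erbB2-positive against Comma-D (15), 24 within the 1:1 co-culture (7) and 0 between the erbB2-negative fractions (3). Centring moves all genes of a comparison by the same amount, so these counts are not read as results about the replication genes. It reversed Rfc1 (0.70), Orc6 (0.25), Mcm4 (0.57) and Tyms (1.11) between the lines, and Prim2 (-0.19) and Orc6 (-0.43) in 1:50 erbB2-positive against MMTV-neu. Quantile normalization left 1 called between the erbB2-negative fractions. Over all genes the share of calls that were higher between the lines was 65%, and 94.3% centred.

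Array weights gave 5 called in 1:50 erbB2-positive against Comma-D (0), 18 between the erbB2-positive fractions, 1 in 1:50 erbB2-negative and 10 in 1:1 erbB2-negative against Comma-D, 2 within the 1:50 and 16 within the 1:1 co-culture, 10 in the interaction and 8 between the erbB2-negative fractions. The replicate block in 18 arrays gave 1 in 1:50 erbB2-positive and 7 in 1:1 erbB2-negative against Comma-D and 7 between the erbB2-negative fractions. The replicate block in the 12 co-culture arrays gave 11 within the 1:1 co-culture, 8 between the erbB2-negative fractions, 2 in the interaction and 14 between the erbB2-positive fractions, and left 0 within the 1:50 co-culture. Of all genes that block called 65.8%, 47.3%, 12.4%, 77.8% and 0.01% in the same order. A fit of the compared groups gave 1 in 1:1 erbB2-positive against MMTV-neu, 24 in it against Comma-D and 0 between the erbB2-negative fractions; the filter on low values gave 1 in the first of these. Without the 4 arrays numbered 3 there were 2 in 1:50 erbB2-positive and 15 in 1:1 erbB2-negative against Comma-D, 0 in 1:1 erbB2-positive against MMTV-neu and 4 within the 1:1 co-culture. The cause of these changes was not tested.

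Leaving out each array in turn gave 16 to 20 called between the lines, 13 to 18 in 1:50 erbB2-positive against MMTV-neu, 9 to 12 between the erbB2-positive fractions, 0 to 2 in 1:1 erbB2-positive against MMTV-neu, 12 to 15 in it against Comma-D, 1 to 8 in 1:1 erbB2-negative against Comma-D, 5 to 13 within the 1:1 co-culture, 0 to 6 between the erbB2-negative fractions and 0 to 3 in the interaction. Over 43 pairs of gene and comparison and 669 alternatives, 587 kept direction and call, 76 kept direction only and 6 reversed.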
